A study of Mus musculus
Rattus norvegicus and Mus musculus with 6 samples.

Results

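Gpnmb, Cd68, Mertk and Lyz2 are genes of maturing macrophages, and their signals were followed across 6 mouse bead arrays of lin-/c-kit+ hematopoietic SC. The members were chosen by their signals on these same arrays: Gpnmb, Cd68 and Mertk because they were lower in cocultured SC, and Lyz2 because it hardly differed. For this reason no p is given for a member. All probes whose name holds the gene ID of a member after leading zeros were taken, which gave 6 probes of 4 genes, out of 9796 named probes of 8102 genes and 46628 probes in all. Gpnmb and Lyz2 had 2 probes each, and Cd68 and Mertk had 1 each. The coculture group consisted of 3 samples of SC sorted after 48 h of direct contact with neonatal rat ventricular cardiomyocytes (NRVCM). The monoculture group consisted of 3 samples of SC cultured alone for 48 h. In both groups the SC came from bone marrow of tibia and femur of mice labelled as male C57Bl/6 and had been depleted of mature blood cells, CD11b-positive cells included. The NRVCM came from rats labelled as female Wistar. Each sample was an experiment of its own. According to the study's methods, a monoculture well received more SC than a coculture well, so SC density and contact with NRVCM cannot be told apart.

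Macrophages arise from bone marrow progenitors by way of monocytes, and as they mature they gain receptors for dead cells and a large lysosomal compartment. Mertk is a receptor tyrosine kinase that binds dead cells through the bridging proteins Gas6 and protein S. Cd68 is a heavily glycosylated protein of the late endosomal and lysosomal membrane. Gpnmb is a transmembrane glycoprotein of lysosomes and phagosomes that macrophages laden with lipid or debris make in quantity. Lyz2 encodes the lysozyme of the myeloid lineage, an enzyme that breaks bacterial cell walls and is made by granulocyte and monocyte precursors as well as by macrophages.

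The deposited signals are on the log2 scale and run from 5.81 to 14.85 with nearly the same distribution on every array. As the background limit of an array, the highest signal among 22 reporter and vector probes was taken, and it lay between 6.75 and 6.86. By limma's empirical Bayes test with Benjamini-Hochberg adjustment, 898 probes (1.93%) were lower and 806 (1.73%) higher in coculture. Such probes, with an adjusted p under 0.05 and a change beyond 1.5-fold, are referred to as called. With the background subtracted, 311 were lower and 182 higher. Several arrays went against the labels for the mice. The Y-linked Eif2s3y was above background only on coculture replicate 2 (8.93), and Kdm5d likewise (6.94). Ddx3y and Uty, also Y-linked, were at background on every array, this one included. Xist, the RNA that coats the inactive X chromosome of females, was at 8.72, 6.84 and 8.80 on coculture replicates 1, 2 and 3 and at 8.62, 8.77 and 8.21 on monoculture replicates 1, 2 and 3. These are values of its brighter probe, and the other Xist probe was at background on every array. The MHC class I gene H2-D1 was at 11.83, 12.30 and 12.68 in coculture and at background in monoculture, at least 45.3-fold higher. H2-K1, another class I gene, was at 8.55, 8.18 and 7.46 in coculture and at 9.34, 9.59 and 9.60 in monoculture (adjusted p = 0.0284, and 0.0583 without coculture replicate 2). Another genotype of the mice and contact with NRVCM cannot be told apart in any value below. Values without coculture replicate 2 are therefore given for each member.

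Gpnmb was the member with the largest difference, and it was lower in cocultured SC by both of its probes. The bright probe (scl093695.11_9-S) had log2 signals of 10.78, 10.32 and 7.97 on coculture replicates 1, 2 and 3. On the monoculture replicates it had 14.30, 14.43 and 14.24. The groups lay 3.47 apart at their nearest arrays, and coculture replicate 3 stood 2.35 below the next coculture array. Cocultured SC averaged 9.69 ± 1.5 and monocultured SC 14.32 ± 0.095 (SD, n = 3 each), a difference of -4.63 (standard error 0.69), or 24.8-fold lower in coculture. The dim probe (scl0093695.2_80-S) had 6.52, 6.51 and 6.38 in coculture, at background on all 3 arrays, and 9.50, 9.79 and 9.48 in monoculture. Because the coculture values of this probe are bounded by background, it gives only that the signal was at least 6.91-fold lower. Without coculture replicate 2 the differences were -4.95 for the bright and -3.14 for the dim probe. Without coculture replicate 3 they were -3.78 and -3.07. In bulk RNA, fewer cells that express a gene and less RNA per cell cannot be told apart, which holds for every member.

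Cd68, the lysosomal membrane protein, was lower in coculture as well (probe scl0012514.2_91-S). It had 10.96, 11.30 and 10.19 in coculture and 12.94, 12.85 and 12.82 in monoculture. The groups did not overlap, with a gap of 1.52 between the highest coculture and the lowest monoculture array. The mean was 10.82 ± 0.57 in coculture and 12.87 ± 0.063 in monoculture (SD, n = 3 each), a difference of -2.06 (standard error 0.26) or 4.16-fold. It was -2.30 without coculture replicate 2 and -1.74 without coculture replicate 3.

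Mertk, the receptor for dead cells, was lower in coculture too (probe scl0017289.2_279-S). It had 7.51, 8.06 and 7.23 in coculture and 9.08, 9.26 and 9.24 in monoculture. All 6 values were above background, and the nearest arrays of the groups were 1.02 apart. The mean was 7.60 ± 0.42 in coculture and 9.19 ± 0.10 in monoculture (SD, n = 3 each), a difference of -1.59 (standard error 0.20) or 3.02-fold lower. With the background subtracted, the difference of Mertk was -2.24 and that of Cd68 -2.11. Coculture replicate 2, the array with the Y-linked signal, was the highest of the coculture arrays for Mertk and Cd68, and without it the Mertk difference was -1.82.

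Lyz2 gave nearly the same signal in both groups by its bright probe (scl0017105.1_34-S). It had 14.51, 14.51 and 14.38 in coculture and 14.52, 14.61 and 14.68 in monoculture. The ranges were apart by only 0.011, so that the highest coculture array lay just under the lowest monoculture array. The mean was 14.47 ± 0.072 in coculture and 14.60 ± 0.082 in monoculture (SD, n = 3 each), a difference of -0.14 (standard error 0.062). The dim Lyz2 probe (scl0017105.2_305-S) had 7.06, 7.21 and 6.90 in coculture and 7.13, 7.25 and 7.96 in monoculture. Here the groups overlapped, and monoculture replicate 3 alone stood above the other 5 arrays. The difference of this probe was -0.39 (standard error 0.22), and -0.14 without monoculture replicate 3. Without coculture replicate 2 the Lyz2 differences were -0.16 for the bright and -0.47 for the dim probe.

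**Figure D1:**
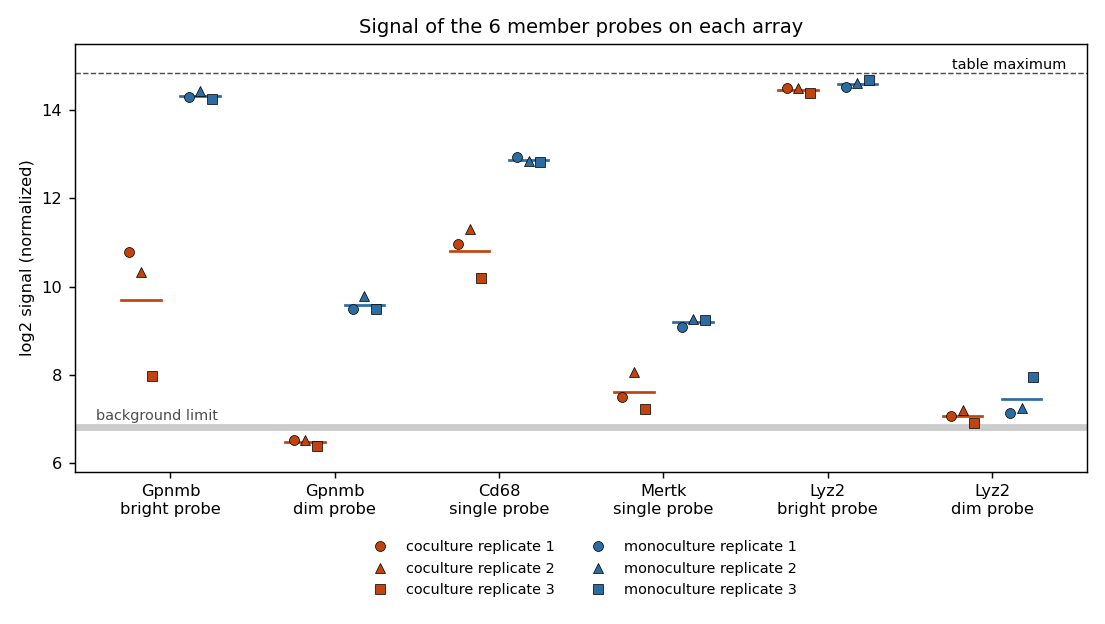
Normalized log2 signal (vertical axis) of the 6 member probes on the 3 coculture arrays (left, orange) and the 3 monoculture arrays (right, blue), with the mean of each group as a bar, the table maximum as a dashed line and the range of the background limits in grey. The Gpnmb, Cd68 and Mertk values of the groups do not overlap, the dim Gpnmb probe is at background in coculture, and both groups of the bright Lyz2 probe lie just under the maximum.

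The members' positions below the top of the table differed. Each array held 173 probes within 1 of its maximum of 14.85 and 68 within 0.5. The maximum and these counts were equal on all 6 arrays of normalized values, so they cannot show whether any signal saturated. On a log scale of rank the curve of signal is flat there, and this part is called the flat stretch. Per rank, the signal falls faster there than between ranks 1000 and 10000. The probe of rank 10 had 14.67, that of rank 100 had 14.23 and that of rank 1000 had 11.73, while from rank 1000 to rank 10000 the signal dropped to 7.46. The bright Lyz2 probe held ranks 35, 34 and 61 in coculture and 31, 19 and 9 in monoculture. It was 0.35, 0.34 and 0.47 below the maximum in coculture and 0.33, 0.24 and 0.17 below it in monoculture. Between ranks 20 and 50 the curve ran only between 14.61 and 14.43. Cd63, a lysosomal gene described later, was on this stretch in monoculture only, with 14.34, 14.44 and 14.37, against 13.33, 13.42 and 13.30 in coculture. Whether saturation of the bright Lyz2 probe had a part in the small Lyz2 difference was not tested.

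The bright Gpnmb probe reached the same flat stretch in monoculture only. Its ranks were 1974, 2651 and 8093 in coculture and 80, 51 and 98 in monoculture, where it lay 0.55, 0.43 and 0.61 below the maximum. The part of this ceiling in the 24.8-fold was not tested. The dim Gpnmb probe was far from the ceiling in monoculture (ranks 4195, 3618 and 4226) but was bounded by background in coculture. Each Gpnmb probe was therefore near a limit of the table at one end. Cd68 (ranks 1747, 1363 and 2866 in coculture and 369, 397 and 407 in monoculture) lay between the limits on all 6 arrays. Mertk did so too, at ranks 9794, 7820 and 11111 in coculture and 5110, 4692 and 4747 in monoculture.

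**Figure D2:**
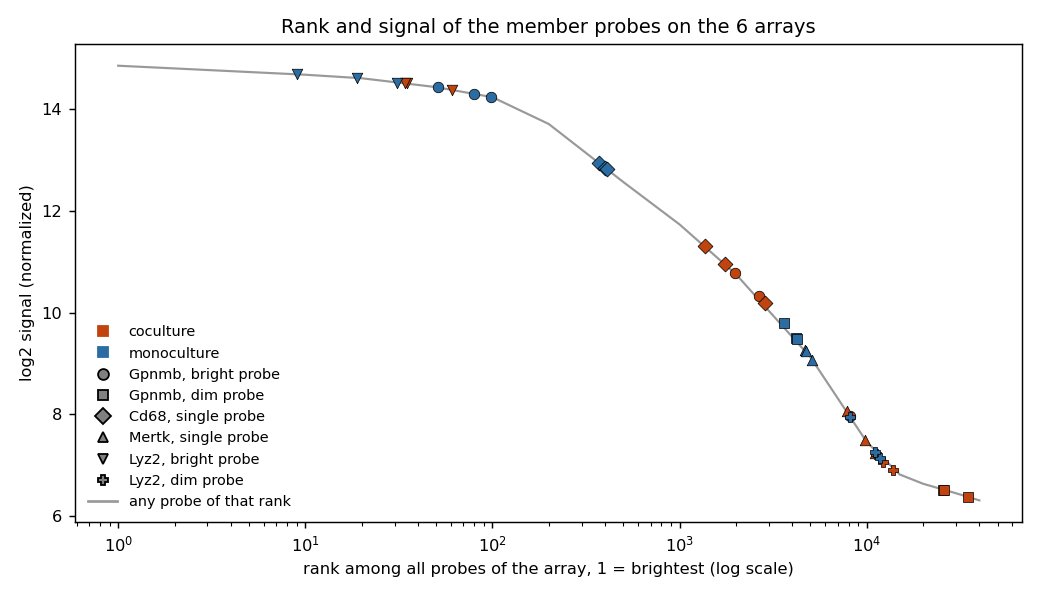
Normalized log2 signal (vertical axis) against rank on the array (horizontal axis, log scale, 1 is the brightest probe) for the 6 member probes on the 3 coculture (orange) and 3 monoculture (blue) arrays, with the signal of any probe of that rank as a grey line. The bright Lyz2 probe on all 6 arrays and the bright Gpnmb probe in monoculture sit on the flat stretch above 14, whereas Cd68 and Mertk lie on the steep part.

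Lyz1, the neighbouring paralog of Lyz2 that in the mouse is best known from Paneth cells of the gut, did not share the flat pattern. Its brighter probe had 7.59, 7.21 and 6.67 in coculture and 9.06, 8.48 and 9.16 in monoculture. The difference was -1.74 (standard error 0.27, adjusted p = 0.0171), and the other probe had 7.08, 6.63 and 6.37 in coculture and 8.77, 8.12 and 9.04 in monoculture (adjusted p = 0.0126). The brighter probe was at background on coculture replicate 3 and the other on coculture replicates 2 and 3, so these differences rest in part on values that were not measured. With the background subtracted, the brighter probe was not called (-2.94, adjusted p = 0.176). The coding sequences of Lyz1 and Lyz2 are close to each other, and how much of the signal of either gene's probes came from the other gene was not tested. The groups of the dim Lyz2 probe overlapped where those of both Lyz1 probes did not.

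The bright Gpnmb probe, Cd68 and Mertk varied more between the coculture than between the monoculture arrays, whereas the other 3 member probes varied less. The coculture values spread over 2.80 for the bright Gpnmb probe, 1.11 for Cd68 and 0.83 for Mertk, against 0.19, 0.12 and 0.19 for the monoculture values. The monoculture spread of Gpnmb was measured on the flat stretch under the maximum. Among the 18946 probes above background on any array, only 17 (0.090%) had a coculture SD as large as that of the bright Gpnmb probe. For Cd68 this number was 409 (2.16%) and for Mertk 875 (4.62%). The bright Lyz2 probe spread over 0.13 in coculture and 0.16 in monoculture, the dim Lyz2 probe over 0.31 in coculture and 0.82 in monoculture, and the dim Gpnmb probe over 0.14 in coculture, all at background, and 0.31 in monoculture.

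Coculture replicate 3 was the lowest coculture array for all 6 member probes. It was the lowest for 30.8% of the 12909 probes above background on all arrays, for 34.6% of 3429 such named genes, for 51.1% of the 898 probes called lower and for 18.5% of the 806 called higher. The 2 upper arrays did not keep 1 order. Gpnmb was highest on coculture replicate 1 by both probes, by 0.45 for the bright probe and by 0.0039 for the dim one, where all values were at background. Cd68, Mertk and both Lyz2 probes were highest on coculture replicate 2, which exceeded replicate 1 by 0.35 for Cd68 and by 0.56 for Mertk. With 3 arrays these orders are descriptions, and no correlation was computed. For the Lyz2 probes and the dim Gpnmb probe, the deviations of replicate 3 from the coculture mean were -0.083, -0.16 and -0.089, against -1.72 for the bright Gpnmb probe, -0.63 for Cd68 and -0.37 for Mertk.

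Slc11a1, a metal ion transporter of the phagosome membrane, had 12.06, 11.81 and 10.36 in coculture and 13.75, 13.76 and 14.00 in monoculture, in the order of Gpnmb. Of its other 2 probes, also lowest on coculture replicate 3, 1 had the order of Gpnmb (8.98, 8.82 and 7.38 in coculture) and 1 that of Cd68 and Mertk (8.76, 8.90 and 7.44). Apoe, an apolipoprotein made by macrophages, had 9.28, 11.11 and 8.02 in coculture and 12.14, 12.78 and 12.24 in monoculture, in the order of Cd68 and Mertk. C1qb, a chain of the complement protein that tags dead cells, had 10.21, 11.90 and 10.20 in coculture and 11.88, 12.05 and 11.86 in monoculture, so that coculture replicate 2 lay within the monoculture range. The MHC class II genes Cd74 and H2-Ab1 had the reverse of the Gpnmb order within coculture. Cd74, the invariant chain, had 11.24, 12.39 and 13.39 in coculture, highest where Gpnmb was lowest, and 13.32, 13.14 and 12.82 in monoculture. H2-Ab1 had 9.95, 11.19 and 12.65 in coculture and 12.15, 12.29 and 11.65 in monoculture. Their means were lower in coculture, as those of the members were, by -0.75 for Cd74 and -0.76 for H2-Ab1. Neither gene passed limma's test between groups (adjusted p = 0.546 for Cd74 and 0.645 for H2-Ab1).

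**Figure D3:**
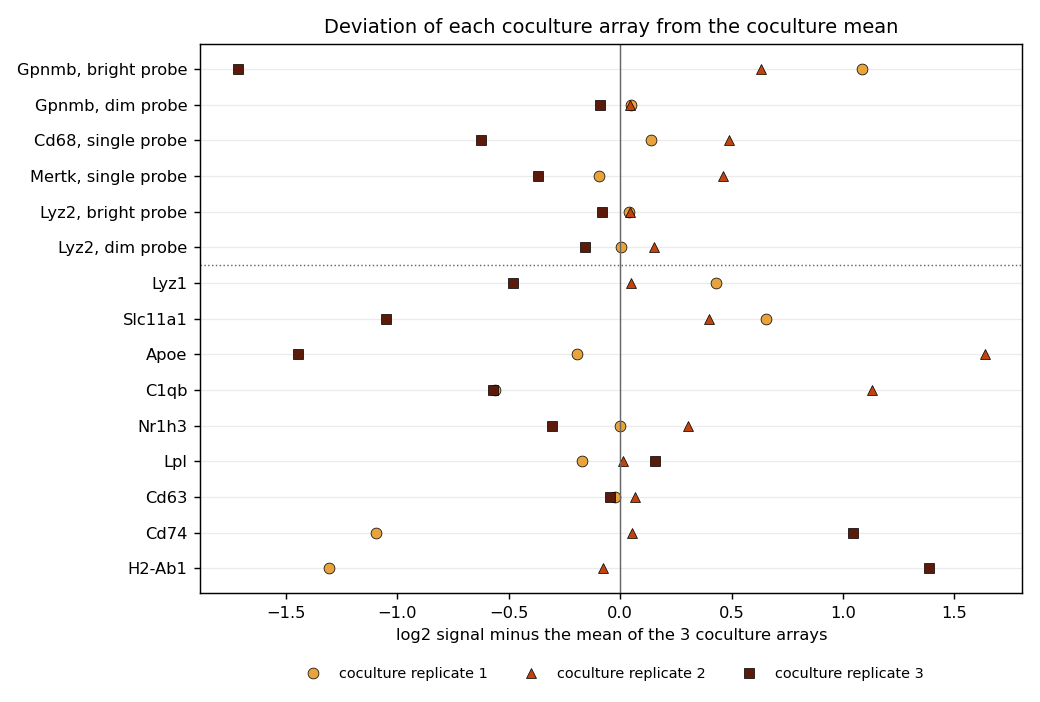
Log2 signal of each coculture array minus the mean of the 3 coculture arrays (horizontal axis) for the 6 member probes (above the dotted line) and 9 other genes (below it), with one symbol for each coculture replicate. Replicate 3 is lowest for every member and highest for Cd74 and H2-Ab1, and Apoe and C1qb stand apart on replicate 2.

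The members were set against each other, and against the other named genes, by the root mean square distance between profiles over the 6 arrays, each centred on its own mean. This measure was dominated by the difference between groups that chose the members, so it is a description. Cd68 and Mertk were the nearest pair of members, at 0.29. The bright and dim Gpnmb probes were 1.12 apart, whereas the dim Gpnmb probe was 0.62 from Cd68. Nearest to the bright Gpnmb probe were the growth factor gene Igf1 (0.77), Nr1h3 (0.95), which encodes the oxysterol receptor LXR alpha, the fatty acid binding protein gene Fabp3 (1.02), Slc11a1 (1.06) and Apoe (1.10). No named gene lay nearer than 0.77, and none of these 5 was as far below its own mean on coculture replicate 3. Nearest to the dim probe were the cytokine receptor gene Il7r (0.14), the lipoprotein lipase gene Lpl (0.19), Fabp3 (0.21), the lipid phosphatase gene Plpp3 (0.28) and Nr1h3 (0.28).

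The genes nearest to Cd68 included the lysosomal protease gene Ctsb at 0.17, by its dimmer probe. That probe had 9.61, 9.99 and 9.12 in coculture and 11.41, 11.82 and 11.51 in monoculture, in the order of Cd68. The others were the protease inhibitor gene Serpinb6a (0.21), Fcrl1 (0.22), a gene better known from B cells, the semaphorin and VEGF coreceptor gene Nrp1 (0.24) and the growth factor gene Pdgfa (0.25). Mertk lay nearest to Rgl1, an exchange factor for Ral GTPases, at 0.077. Rgl1 had 8.36, 8.86 and 7.86 in coculture and 9.84, 10.02 and 10.09 in monoculture. Nrp1 (0.12), the focal adhesion gene Tns3 (0.14), the cholesterol exporter gene Abcg1 (0.15) and the paxillin family gene Lpxn (0.16) followed. Nrp1 was near both Cd68 and Mertk, by a different probe each. The dim Lyz2 probe, with a range of just over 1, had H3f3a (0.078), Lima1 (0.083), Adam17 (0.096), Ugt1a7c (0.11) and Acvr1 (0.11) nearest, whose highest array was monoculture replicate 3, as was its own.

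**Figure D4:**
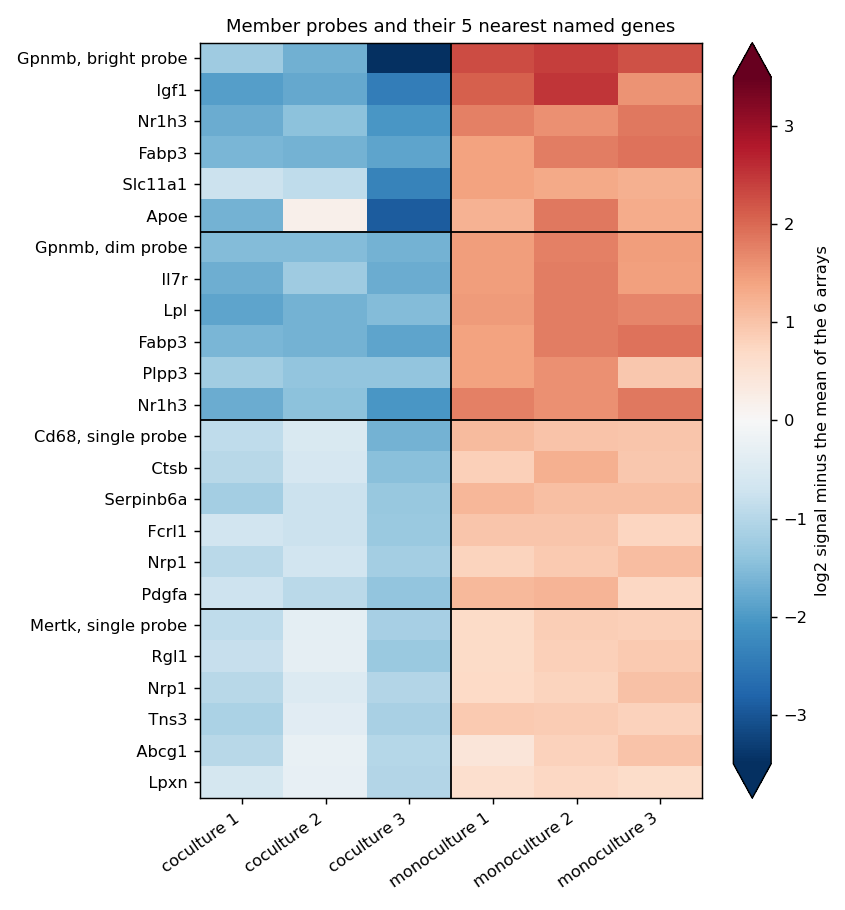
Log2 signal minus the mean of the 6 arrays (colour, blue below and red above) on the 3 coculture arrays (left) and 3 monoculture arrays (right) for the bright and dim Gpnmb probes, Cd68 and Mertk, each followed by its 5 nearest named genes. The dark cell of Gpnmb on coculture replicate 3 has no equal among its neighbours, and the neighbours of Mertk are palest on coculture replicate 2.

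Genes that work with the members were read from lists, with the members left out and 1 probe a gene, the brightest. Among all 8102 named genes 228 (2.81%) were called lower and 241 (2.97%) higher, which is 5.18% and 5.48% of the 4398 above background on any array. Phagocytosis of dead cells, the process that Mertk serves, had 13 of its 37 listed genes on the array under a name. Of these, 4 were at background throughout, among them Tyro3, a receptor kinase of the same family as Mertk. By limma 1 was called lower and 1 higher, and the median difference was 0.044 over the 13 genes and -0.19 over the 9 above background, against 0.0037 and 0.014 over all named genes. Lrp1, a scavenger receptor, had 7.95, 8.38 and 7.32 in coculture and 8.95, 9.22 and 9.18 in monoculture, a difference of -1.23 (standard error 0.25, adjusted p = 0.0417). Thbs1, a matrix protein that bridges dead cells and phagocytes, had 9.08, 8.46 and 8.53 in coculture and 7.09, 7.82 and 7.34 in monoculture, a difference of 1.27 (standard error 0.23, adjusted p = 0.0275). The lipoprotein receptor gene Scarb1 (0.40, adjusted p = 0.0993), the signal-regulatory ligand gene Cd47 (0.28, adjusted p = 0.271) and C1qb (-1.16, adjusted p = 0.241) did not pass. Without coculture replicate 2, in which C1qb was high, 3 genes were called lower, C1qb with an adjusted p of 0.00141 (0.00141 to 0.505 over the alternatives). The call of Lrp1 was lost without coculture replicate 1 and without any 1 of the monoculture arrays, and that of Thbs1 without coculture replicate 1 or 3 and without monoculture replicate 1 or 3 (adjusted p up to 0.119 for Lrp1 and 0.0911 for Thbs1).

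Lysosomal genes, the compartment of Cd68 and Gpnmb, had 19 of 46 listed genes named and 3 of these at background. Of the 19, 5 were called lower and 0 higher by limma (9 lower and 1 higher at an unadjusted p under 0.05). The median difference was -0.20 over the 19 genes and -0.36 over the 16 above background, and 13 of these 16 had a negative difference, against 47.8% of all named genes above background. Cd63, a membrane protein of late endosomes and lysosomes, had 13.33, 13.42 and 13.30 in coculture and 14.34, 14.44 and 14.37 in monoculture. Its difference of -1.03 (standard error 0.051, adjusted p = 0.000658) was fitted to monoculture values on the flat stretch under the maximum. The lysosomal acid phosphatase gene Acp2 was lower by a difference of -1.29 (standard error 0.19, adjusted p = 0.0154), and the calcium channel gene Mcoln1 by one of -1.13 (standard error 0.15, adjusted p = 0.0111). Ctsb was lower by both probes, by -1.15 at the bright one (adjusted p = 0.0166) and 4.01-fold at the dimmer one (adjusted p = 0.00659), and the protease gene Ctsz was called as well (-0.84). Of the genes not called, the acid ceramidase gene Asah1 (-0.50, adjusted p = 0.17), the proton pump subunit gene Atp6v0d1 (-0.41, adjusted p = 0.0992) and Lamp2 (-0.10, adjusted p = 0.883), another glycoprotein of the lysosomal membrane, had the highest levels. Without monoculture replicate 1 only 2 were called, Acp2, Ctsb and Ctsz being lost (adjusted p = 0.0559, 0.0659 and 0.0646). The transcription factors of the MiT/TFE family, which drive lysosomal genes and Gpnmb, had 0 of 4 genes named and were not analysed here.

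Monocyte and macrophage markers had 16 of 54 listed genes named, of which 2 were at background. By limma 4 were called lower and 0 higher (8 lower and 1 higher at an unadjusted p under 0.05), with a median difference of -0.37 over the 16 genes and -0.72 over the 14 above background. Of these 14, 12 had a negative difference, and 13 were lowest in coculture on replicate 3, as the members were. This order also held for 11 of the 16 lysosomal and 9 of the 12 neutrophil genes above background. Among all named genes above background it held for 34.6%. The sum of the linear signals of the list was 18866 to 29952 in coculture and 49002 to 56195 in monoculture. Bright genes weigh most in this sum, and in monoculture Slc11a1 (mean 13.84) and Lpl (13.51), both called lower, were the brightest. The sum is thus no measure of the list as a whole. Nr1h3 had 7.28, 7.59 and 6.97 in coculture and 10.77, 10.62 and 10.86 in monoculture (-3.47, standard error 0.15, adjusted p = 0.000519). Lpl averaged 10.17 ± 0.16 in coculture and 13.51 ± 0.16 in monoculture (SD, n = 3 each), a difference of -3.33 (adjusted p = 0.00027). Unlike the members, it was highest in coculture on replicate 3 (10.33). These are values of its brighter probe, and the other Lpl probe was at background on every array. Slc11a1 differed by -2.43 (standard error 0.43, adjusted p = 0.0249) and by -2.53 and -2.65 at its other 2 probes. Its call was lost without any 1 of the monoculture arrays (adjusted p up to 0.0891), and that of Lyz1, described above, without monoculture replicate 1 (adjusted p = 0.0719). Among the genes that did not pass, the Fc receptor gene Fcgr3 (0.34, adjusted p = 0.199) and Spp1 (0.39, adjusted p = 0.536) were among those with the highest levels. Fcgr3 had 12.75, 13.00 and 12.53 in coculture and 12.30, 12.47 and 12.48 in monoculture, and coculture was thus not lower for this marker, which other myeloid cells share. Apoe did not pass with all arrays (-2.91, adjusted p = 0.0745) and passed without coculture replicate 2 (adjusted p = 0.00955, range over the alternatives 0.00955 to 0.266). Csf1r, the receptor for the growth factor of macrophages, had 10.13, 10.35 and 9.29 in coculture and 10.74, 10.60 and 11.21 in monoculture (-0.92, adjusted p = 0.152).

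Markers of other cells moved beside the members in part. In the neutrophil and promyelocyte list, 12 of 25 genes were named, 1 was called higher and 0 lower by limma (1 and 2 at an unadjusted p under 0.05). The called gene was Elane, a neutrophil granule protease, with 14.47, 14.70 and 14.65 in coculture and 13.95, 14.01 and 14.08 in monoculture (adjusted p = 0.00797), near the flat stretch of Lyz2. Its difference of 0.59 was just past 1.5-fold and fell short of it without coculture replicate 2 or 3 or without monoculture replicate 1. Mpo did not pass (0.12, adjusted p = 0.665). The median difference of the 12 neutrophil genes was -0.28, and 9 of them had a negative difference. Their summed signal was 73929 to 87906 in coculture and 65224 to 82620 in monoculture, and the groups overlapped in this sum. Mpo, Elane and S100a9, the brightest genes of the list, made up most of it. Of 9 named stem and progenitor genes, 4 were at background on all arrays. By limma 1 was called higher, Egfl7 (1.63, adjusted p = 0.0104), and 0 lower (2 higher and 0 lower at an unadjusted p under 0.05). The stem cell sum was 5976 to 7048 in coculture and 6138 to 6390 in monoculture. Both named megakaryocyte genes were called lower, Itga2b (-2.12) and Gp1bb (at background on 2 of the 3 coculture arrays, against 8.58 to 10.21 in monoculture, and not called without coculture replicate 1, adjusted p = 0.0674, or with the background subtracted, adjusted p = 0.0678), with a summed signal of 233 to 373 in coculture and 1008 to 2415 in monoculture. Batf3 was called lower (-0.60, a call kept only without coculture replicate 3 when 1 array was left out) among 4 named dendritic cell genes, whose sum was 3634 to 17412 in coculture and 10723 to 15038 in monoculture. Of 6 named cardiomyocyte genes 4 were at background on all arrays, Myh6 and Myh7 among them, and 0 were called by limma (0 lower and 1 higher at an unadjusted p under 0.05). All 7 named fibroblast genes were at background on all arrays. Of the 3 named genes each of erythroid cells, mast cells and basophils, B and T cells and endothelial cells, 0 were called by limma (1, 2, 3 and 1 lower and 0 higher at an unadjusted p under 0.05). The part of the numbers of each cell type in the members' differences was not tested.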

How the data were processed

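SC were purified by repeated flow cytometry, and biotin-labelled cRNA was hybridized to Illumina Mouse Sentrix-6 BeadChip arrays. The authors discarded outlying beads, took the mean over the remaining beads per probe and applied quartile normalization; their deposited values are log2 signals. A further deposited table holds 12 columns of raw signals and detection p-values whose numbering names no sample, and was not used. The values were used without further scaling. Gene names come from gene IDs in the probe names, matched to RefSeq mouse genes, which left 36832 probes unnamed. Probes with such a number but no leading zeros were left out, because they did not track the gene (Pearson's r of the differences across 797 genes was -0.077, against 0.49 for 1490 genes with 2 padded probes). Differences were fitted over all probes with limma 3.58.1 in R 4.3.3, by group only, and tested on simulated data. The standard errors of the members are those of this fit, and no p is given for them. Alternatives left out each array, added the replicate number, filtered dim probes, subtracted background, rescaled by medians or ranks, used a trended robust variance, and for lists took the probe with the largest difference or no minimum fold. After background subtraction, linear signals under a floor of 8 were set to 8. Ranks were turned into normal scores scaled to the SD of the whole table, so their differences are not log2 differences. The background limit was set after the values were seen. A bound takes, for each array at background, the higher of its limit and the probe's own signal. The members and lists were chosen with earlier results of these data known. Genes named from a list were up to 4 called genes with the largest differences and the 3 brightest not called, of which 1 is not reported here; the 5 named genes nearest to each member probe were added. Apoe, Csf1r, Tyro3, Cd74, H2-Ab1, Myh6, Myh7 and the genes under other observations were named after their values were seen. The 3 arrays per group limit the precision.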

Additional observations from a re-analysis of the deposited data

How the results depend on the processing

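No member difference changed sign under any alternative. With the background subtracted, it was -6.42 for the dim Gpnmb probe, -2.24 for Mertk and -0.84 for the dim Lyz2 probe. The dim Gpnmb probe was at background in coculture, so its -6.42 depends on the floor of 8 and is not a measured change. With ranks as normal scores the difference was -2.20 for the bright and -2.41 for the dim Gpnmb probe, -0.94 for Cd68, -0.62 for Mertk and -0.36 for the bright Lyz2 probe. These scores are not on the log2 scale, so their sizes cannot be set beside the other differences. Leaving out 1 array at a time, the differences ranged between -5.18 and -3.78 for the bright and -3.17 and -3.02 for the dim Gpnmb probe, -2.30 and -1.74 for Cd68, -1.82 and -1.41 for Mertk, -0.18 and -0.097 for the bright and -0.55 and -0.14 for the dim Lyz2 probe. Over all probes, 583 to 907 were then called lower (583 without coculture replicate 1, 588 without monoculture replicate 1) and 433 to 922 higher (490 and 433 without these arrays). With no minimum fold, 1500 were lower and 1514 higher, with the background subtracted 311 and 182, and with ranks 12 and 6. The 1.5-fold cut was applied unchanged to the rank scores, here and for the lists, so counts with ranks are on another scale. Why the counts differed was not tested.

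Of the phagocytosis genes, 1 was called lower with all arrays, 0 to 3 with 1 array left out, 0 with the background subtracted, 0 with ranks, 2 with the filter on dim probes and 2 with the trended robust variance. Of the lysosomal genes, 5 were called lower with all arrays, 2 to 6 with 1 array left out, 1 with the background subtracted and 0 with ranks. Of the macrophage markers, 4 were called lower with all arrays, 3 to 5 with 1 array left out, 2 with the background subtracted and 1 with ranks. Lpl kept its call under all 12 alternatives tried on single genes, Nr1h3 and Cd63 lost it only with ranks, and Slc11a1 lost it under 6. Same-numbered arrays of the groups did not deviate together (Pearson's r of -0.14, -0.14 and -0.12 across 12909 probes, which are not independent). With 3 arrays a group, these values cannot settle whether the numbers pair the arrays. The replicate block gave 610 lower and 571 higher probes, 0 phagocytosis, 3 lysosomal and 2 macrophage genes lower. Nearness to the maximum, as the share of brighter probes, was 0.071% to 0.129% for the bright Lyz2 probe in coculture and 0.017% to 0.064% in monoculture. Signals at background bound what any setting can show. Whether signals on the flat stretch under the maximum are bounded was not tested. The 3 arrays a group limit the precision.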

Other observations

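The genes Ltf, Retnlg and Itgb2l of the neutrophil list, picked for this after their values were seen, differed widely between the monoculture arrays. Ltf, the gene of lactoferrin, had log2 signals of 13.41, 13.57 and 12.11 on coculture replicates 1, 2 and 3 and of 14.16, 14.03 and 11.03 on monoculture replicates 1, 2 and 3. Retnlg, a resistin-like gene of neutrophils, had 8.89, 9.63 and 7.60 in coculture and 11.47, 10.20 and 8.58 in monoculture. Itgb2l had 8.70, 8.95 and 7.33 in coculture and 10.04, 10.08 and 7.95 in monoculture. Each of these genes was lowest on replicate 3 within both groups, and none passed the test (adjusted p = 0.991, 0.471 and 0.538). By their brightest probes, S100a9, Chil3, Cxcr2, Cd177 and Anxa1 of the list were also lowest on replicate 3 within both groups. Mpo, Elane, Csf3r and Padi4 were not. Cd177 also differed widely between the monoculture arrays, with 9.66, 9.67 and 8.92 in coculture and 10.02, 9.63 and 8.27 in monoculture. Csf3r had 10.01, 10.34 and 9.33 in coculture and 10.35, 10.08 and 10.33 in monoculture, whereas its dimmer probes were lowest on replicate 3 in both. The groups of Cxcr2 did not overlap (7.27, 7.62 and 6.89 in coculture and 8.06, 7.703 and 7.700 in monoculture, adjusted p = 0.183 by limma). The adult globin gene Hba-a1 varied in yet another order, with 9.93, 6.87 and 7.77 in coculture and 9.18, 10.82 and 7.83 in monoculture.

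A probe whose name holds the number of Mertk without leading zeros had 7.73, 7.67 and 7.58 in coculture and 7.25, 7.13 and 7.50 in monoculture, the opposite direction to Mertk. One with the number of Lyz2 was at background on all 6 arrays. Such numbers did not act as gene IDs on this array, and neither probe was counted as a member.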
